A study of Mus musculus with 8 samples.

Results

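Immediate early response genes are switched on within minutes of a stimulus, without new protein synthesis. The 10 genes described here were chosen by name, with earlier results of these data known: Fos, Fosb and Fosl2 (the Fos family), Jun, Junb and Jund (the Jun family), Egr1, Ier2, Atf3 and Btg2. Their entries are 10 of 65265 in the short-read table. Of the 10, 8 had an entry by the matching rule, which took the assembled locus on the same strand that shares at least 0.5 of the joint span with the GENCODE gene, or else the gene's RefSeq transcript. Ier2 was matched through its RefSeq transcript and the other 7 through an assembled locus. Junb and Atf3 had no entry by this rule, because the loci shared 0.424 and 0.273 of the joint span. For both genes the assembled locus with exactly the span of the RefSeq transcript was used, a choice made after the table had been seen, so counts are given for 10 genes and for the 8.

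HL1 is a mouse atrial cardiomyocyte line derived from the AT-1 tumour lineage, so all values come from a single line and not from heart tissue. All libraries came from cells in Claycomb medium with 0.1 mM norepinephrine, an adrenergic agonist, and there was no unstimulated or norepinephrine-free group. Cells were detached enzymatically, nuclei were extracted with urea and detergent, and the supernatant (nucleoplasm) was separated from the pellet (chromatin). The titles name 3 short-read chromatin, 3 short-read nucleoplasm and 2 long-read chromatin libraries, although the field for RNA fraction reads chromatin in the nucleoplasm libraries too. The comparison addresses which transcripts are held on chromatin, and the fractions were compared by title.

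Fos proteins pair with Jun proteins to form AP-1, a bZIP transcription factor that binds DNA as a dimer. Atf3 is a stress-induced bZIP protein, Egr1 is a zinc finger factor, and Btg2 is an antiproliferative protein that recruits the CCR4-NOT deadenylase. In heart muscle these genes are known to respond to adrenergic agonists, stretch and serum through MAP kinases and protein kinase A, which act on serum response factor and CREB at the promoters. Their mRNAs are typically short-lived, in many cases through AU-rich elements in the 3′ UTR.

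The promoters of the members are shown as a description, and their part in the differences between libraries was not tested. RefSeq promoters (GRCm38.p6) were found for 8 of the 10 genes, all but Egr1 and Ier2. The 250 bases before the annotated start are printed 5′ to 3′ for Fos, Jun and Atf3, 3 of the genes that differed most between replicates and whose start is also that of the matched RefSeq model. They lie at chr12:85473640-85473889 on the plus strand for Fos, at chr4:95052223-95052472 on the minus strand for Jun and at chr1:191183334-191183583 on the minus strand for Atf3. Capitals mark the searched motifs on either strand.
Fos: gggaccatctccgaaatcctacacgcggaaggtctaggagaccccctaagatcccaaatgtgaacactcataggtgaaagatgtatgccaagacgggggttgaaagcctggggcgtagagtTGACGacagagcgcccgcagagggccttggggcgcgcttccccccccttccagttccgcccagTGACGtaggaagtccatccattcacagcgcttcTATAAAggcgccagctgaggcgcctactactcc
Jun: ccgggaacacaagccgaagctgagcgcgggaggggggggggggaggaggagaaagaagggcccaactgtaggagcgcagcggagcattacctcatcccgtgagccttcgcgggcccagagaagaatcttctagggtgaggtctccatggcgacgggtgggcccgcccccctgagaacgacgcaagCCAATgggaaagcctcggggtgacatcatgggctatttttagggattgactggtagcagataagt
Atf3: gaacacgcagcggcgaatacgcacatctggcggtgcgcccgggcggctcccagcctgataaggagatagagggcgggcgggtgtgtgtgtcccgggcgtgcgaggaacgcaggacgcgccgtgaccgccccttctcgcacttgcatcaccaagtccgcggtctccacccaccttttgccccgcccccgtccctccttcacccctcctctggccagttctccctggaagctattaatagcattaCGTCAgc

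The cAMP response element core TGACG, searched on both strands, occurred in 5 of the 8 promoters (Fos, Fosb, Junb, Atf3 and Btg2) and in 17.8% of all 32851 promoters. Fos held it 129 and 66 bases before the start, Fosb 60, Junb 106 and Atf3 7 bases before it. The full palindrome TGACGTCA, which contains the core, was found in Btg2, 166 bases before the start, and in 1.55% of all promoters. A TATA box (TATAAA) was found in Fos, 33 bases before the start, against 12.4% of all promoters. The CCAAT box (CCAAT) occurred in Jun, Junb and Btg2, 3 of 8, against 33.8%. The EGR site GCGGGGGCG occurred in Fosb and Fosl2, 2 of 8, against 2.57%. No match to the AP-1 letters TGANTCA (6.75% of all promoters) or to the CArG box bound by serum response factor (1.47%) was found in these windows. The known serum response element of Fos lies farther upstream than the window. These matches are letters in a window and were not tested as binding sites.

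AU-rich elements were counted on 1 transcript of each gene (GENCODE M21). The pentamer ATTTA was present in the 3′ UTR of 9 of the 10 genes, all but Ier2, against 61.5% of 20235 coding genes. Its median density was 2.08 per kb in the members and 1.08 per kb in all coding genes. The longer nonamer TTATTTATT was present in 2 members, Fos and Fosl2, and in 6.75% of coding genes. Both sites are printed with the nonamer in capitals, at chr12:85477103-85477131 on the plus strand for Fos and at chr5:32156871-32156899 on the plus strand for Fosl2 (GRCm38), 655 and 3692 bases past the stop codon.
Fos: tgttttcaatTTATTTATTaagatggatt
Fosl2: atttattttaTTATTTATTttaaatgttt

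Gene counts recovered from the normalized values summed to 91657034 to 121773350 per short-read library. They are counts of gene abundance re-estimated by StringTie and need not equal the number of reads sequenced or aligned. Values are normalized counts, that is gene counts divided by a size factor per library. Fractionation controls fixed by name separated the fractions: Malat1 and Pvt1, noncoding RNAs, were higher in chromatin by 3.82 and 3.93 on the log2 scale, and the mRNAs of Gapdh and B2m differed by -2.07 and -2.67. Defining cardiomyocyte markers were present, with Ttn between 1094136 and 2359206 and Actc1 between 19074 and 37852 normalized counts in chromatin, but 2 of the 8 markers (Myh6 and Tnnt2) had no entry of their own. Nppa was between 10.4 and 113 in the 6 libraries. Of 4 fibroblast markers, Col1a1 was abundant, at 101002 to 115918 in chromatin and 211147 to 344726 in nucleoplasm. The other fibroblast markers were far lower, with Pdgfra at 699 to 2336, Col1a2 at 42.7 to 514 and Dcn at 20.3 to 350 in the 6 libraries. Of 4 endothelial markers, Cdh5 was at 0 in all 6 libraries, Pecam1 was at 0 in 4 of them, and Kdr (808 to 2570) and Tek (187 to 364) were present in all 6. Of 4 leukocyte markers, Cd68 was at 39.1 to 150, Ptprc did not exceed 4.07, and Cd3e was at 0 in nucleoplasm.

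Replicate 3 stood apart. Sums over the cardiomyocyte marker list in replicate 3 were 48.6% (chromatin) and 62.6% (nucleoplasm) of the mean of replicates 1 and 2, and all 5 markers with a mean of at least 100 were lowest in replicate 3 in both fractions. Sums over the fibroblast list were 109% and 162% of that mean, and all 4 were highest in replicate 3 in both fractions. Replicate 3 of Col1a2 and Dcn was more than 2 fold above both other replicates in both fractions. These sums are mostly single genes. In chromatin replicate 1, Ttn made up 2359206 of the cardiomyocyte sum of 2586269, and Col1a1 made up 101002 of the fibroblast sum of 101764. Sums over the endothelial list were 59.3% and 61.4% of the mean of replicates 1 and 2, and both endothelial markers with a mean of at least 100 were lowest in replicate 3 in both fractions. Sums over the leukocyte list were 230% (chromatin) and 99.9% (nucleoplasm) of the mean of replicates 1 and 2, at only 42.4 to 176 normalized counts. Results for the members are therefore also given without replicate 3.

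The members were highest in replicate 3, in chromatin and in nucleoplasm alike. All 9 with a mean of at least 100 normalized counts had their highest value there in both fractions, and so did Ier2, whose mean was 78.0. Over all 15732 entries of that mean, 27.7% were highest in replicate 3 in both fractions. For Fos, Fosb, Jun and Atf3, replicate 3 was more than 2 fold above both other replicates in both fractions. This was met by 283 entries, or 1.8%, for replicate 3, and by 9 and 10 entries for replicates 1 and 2. In bulk libraries, a change in the number of expressing cells and a change in RNA per cell cannot be told apart. The part of the marker shifts in these values was not tested.

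**Figure D1:**
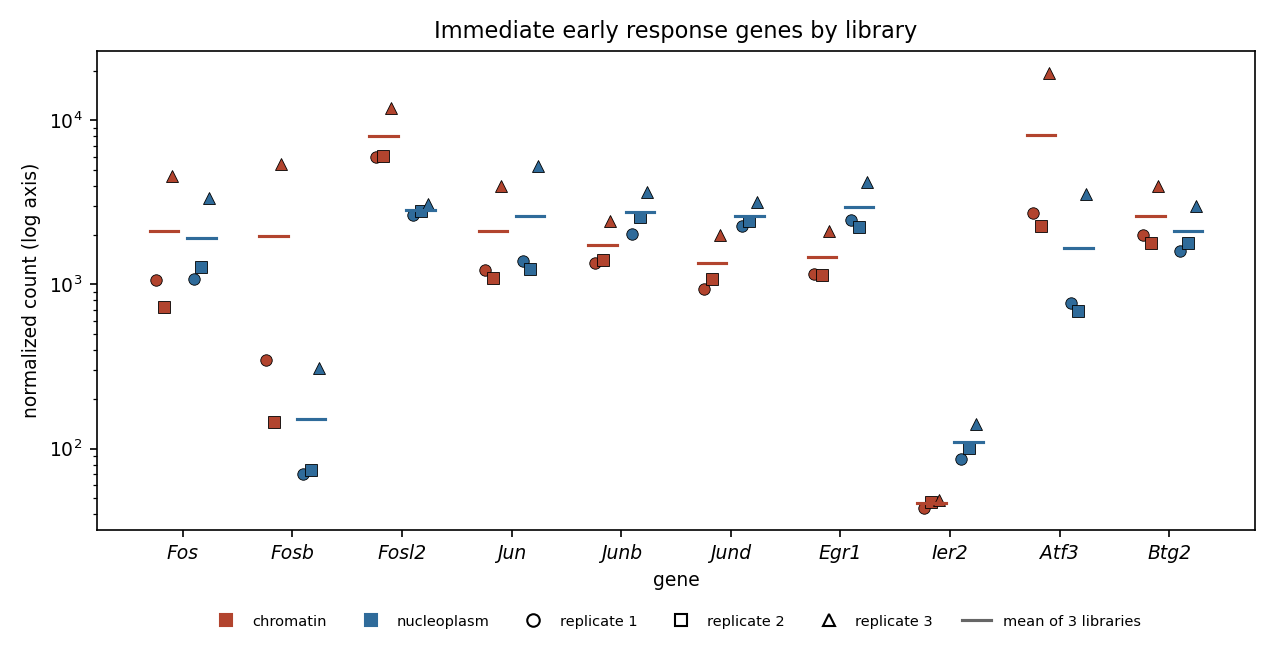
Normalized counts (log axis) of the 10 genes in each of 3 chromatin (red) and 3 nucleoplasm (blue) libraries, with symbols for replicates and a line for the mean of 3 libraries. The triangle of replicate 3 is the highest symbol of each gene in each fraction, from 48.9 for Ier2 to 19488 for Atf3 in chromatin.

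Among the Fos family, Fos was at 1059, 728 and 4548 normalized counts in chromatin replicates 1 to 3 and at 1076, 1268 and 3381 in nucleoplasm. Fos is the prototype member, and its replicate 3 exceeded the next library 4.29 fold in chromatin and 2.67 fold in nucleoplasm, while the fractions overlapped. Fosb was at 347, 145 and 5433 in chromatin and at 69.7, 74.3 and 312 in nucleoplasm. It had the widest gap between replicates of the 10 genes in chromatin, where replicate 3 was 15.7 fold above the next library, and the lowest chromatin value lay below the highest nucleoplasm value. Fosl2, which encodes Fra-2, was at 6002, 6039 and 11808 in chromatin and at 2664, 2803 and 3105 in nucleoplasm. Its libraries did not overlap between fractions, and replicate 3 was 1.96 fold above the next library in chromatin but 1.11 fold in nucleoplasm.

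In the Jun family, Jun, the main partner of Fos, was at 1216, 1088 and 3999 in chromatin and at 1383, 1241 and 5223 in nucleoplasm. Replicate 3 was 3.29 and 3.78 fold above the next library, and the fractions overlapped. Junb was at 1358, 1417 and 2424 in chromatin and at 2022, 2576 and 3661 in nucleoplasm, and its highest chromatin value lay within the nucleoplasm range. Jund, a family member that many cells express without a stimulus, was at 939, 1085 and 2006 in chromatin and at 2281, 2438 and 3159 in nucleoplasm, with no overlap between fractions.

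Of the remaining genes, Atf3 was at 2729, 2273 and 19488 in chromatin and at 773, 689 and 3567 in nucleoplasm. Replicate 3 was 7.14 and 4.61 fold above the next library, and nucleoplasm replicate 3 lay above 2 chromatin libraries. Egr1 was at 1154, 1143 and 2118 in chromatin and at 2461, 2250 and 4206 in nucleoplasm, without overlap. Btg2 was at 1997, 1794 and 3982 in chromatin and at 1592, 1795 and 2983 in nucleoplasm, with overlap. Ier2 was the least abundant, at 43.7, 47.2 and 48.9 in chromatin and at 86.9, 101 and 141 in nucleoplasm, without overlap. The summed members reached 16844, 15759 and 55853 in chromatin and 14408, 15235 and 29737 in nucleoplasm, of which Atf3 made up 34.9% in chromatin replicate 3 and 14.4% to 16.2% in the other chromatin libraries.

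Levels of different genes were compared per kb of spliced GENCODE transcript, whose length need not be that of the assembled model. In chromatin, Atf3 had the highest mean, at 4115 ± 4945 normalized counts per kb (SD, n = 3), followed by Fosl2 at 1216 ± 511, Fos at 1002 ± 1004, Junb at 958 ± 331, Btg2 at 945 ± 441, Jund at 805 ± 347, Jun at 659 ± 516, Fosb at 522 ± 792, Egr1 at 485 ± 184 and Ier2 at 30.6 ± 1.74. Of these neighbours in order, only Egr1 lay with its lowest library above the highest library of the next gene, Ier2. The ranges of all other neighbours overlapped. Compared within each library, Atf3 was also above Fosl2, and Btg2 above Jund, in every chromatin library. In nucleoplasm the order was Jund (1574 ± 281), Junb (1522 ± 461), Egr1 (979 ± 354), Fos (905 ± 607), Atf3 (845 ± 826), Jun (820 ± 709), Btg2 (774 ± 274), Fosl2 (437 ± 34.5), Ier2 (71.9 ± 18.3) and Fosb (40.2 ± 36.6). There the ranges of Btg2 and Fosl2, and of Fosl2 and Ier2, did not overlap, and those of the other neighbours did. Compared within each library, Junb was also above Egr1, and Ier2 above Fosb, in every nucleoplasm library. Jund and Junb thus headed the nucleoplasm order and Atf3 and Fosl2 the chromatin order, a description for which no test was made. The entry of Jund, which has no intron, spans 2878 bp, but its count was divided by 1668 bases. Its place at the head therefore depends on the length used.

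The fractions were then compared by limma, fitted to log2(normalized count + 1) with a trend of variance on mean. Benjamini-Hochberg adjustment was made over all 35779 entries tested. This main fit took the libraries as unpaired. Fosl2 was higher in chromatin, and Jund and Ier2 were lower, at an adjusted p under 0.05. Of all entries, 26.9% were called higher and 20.9% lower in chromatin, against 1 and 2 of the 10 members, also 1 and 2 of the 8 found by the rule. With the threshold of more than 4 fold that the study used for chromatin-enriched RNA, which 15.7% of entries passed as higher and 4.9% as lower, limma called 0 members in either direction, also at an unadjusted p under 0.05. On recovered reads edgeR called 0 members higher at this threshold and DESeq2 called 1, Fosb, and both called 0 lower. Under the ERCC scaling given below, limma called 1 member higher at this threshold, Fosl2. The median difference of the members was -0.19 on the log2 scale, for the 10 and for the 8, against 0.38 over all entries and -0.40 over 9851 coding loci with a mean of at least 100. Libraries did not overlap between the fractions for Fosl2, higher in chromatin as were 31.5% of entries, and for Jund, Egr1 and Ier2, lower in chromatin as were 23.8%.

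Same-numbered libraries of both fractions deviated together most clearly in replicate 3 (r = 0.249 over entries with a mean of at least 10). For replicates 1 and 2 the values, 0.12 and 0.102, were less far above those of their crossed pairs, 0.0636 and 0.0365. The replicate number was also fitted as a block, which takes the numbers as pairs. With the replicate block, limma called 3 of 10 members higher in chromatin (Fosl2, Fosb and Atf3) and 5 lower (Jun, Junb, Jund, Egr1 and Ier2), and 2 and 4 of the 8. Fosb was the only member past 4 fold in this fit. In it 28.8% of all entries were called higher and 23.6% lower. Fos and Btg2 were called in neither fit. Without replicate 3 of both fractions, limma called 2 members higher (Fosl2 and Atf3) and 4 lower (Junb, Jund, Egr1 and Ier2), against 31.2% and 25.5% of 33176 entries. This setting was chosen after seeing the data.

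**Figure D2:**
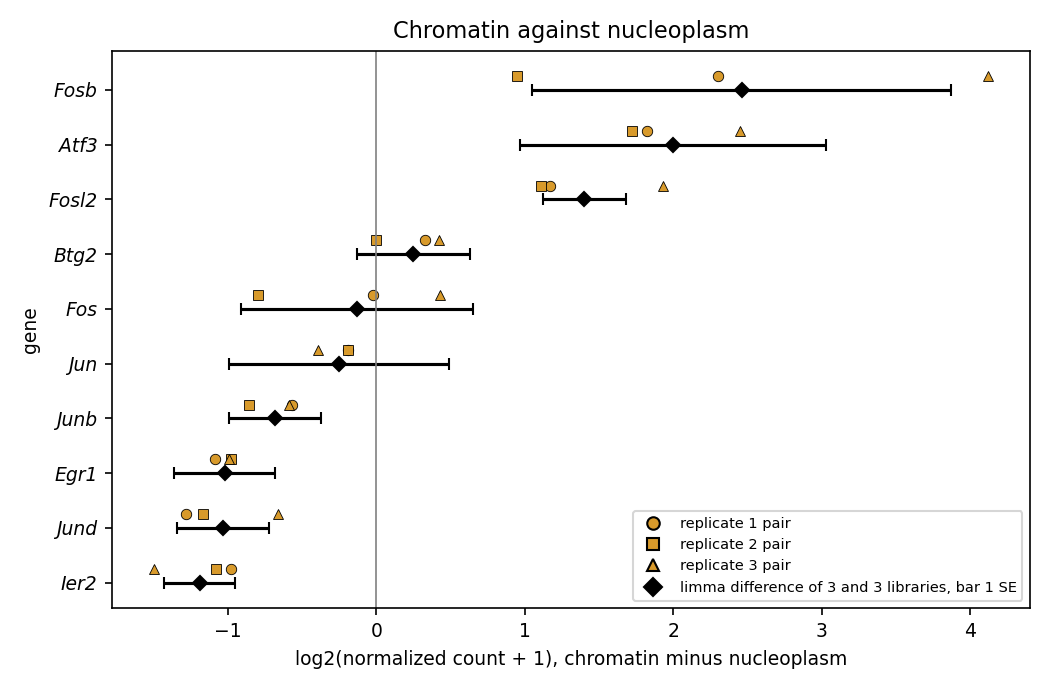
Difference of log2(normalized count + 1), chromatin minus nucleoplasm, for each gene, with black diamonds for the limma estimate over 3 and 3 libraries, bars of 1 SE and yellow symbols for the same-numbered pairs. Fosl2, Atf3 and Fosb lie right of 0 and Jun, Junb, Jund, Egr1 and Ier2 left of 0 in all 3 pairs, whereas Fos, with pairs at -0.02, -0.80 and 0.43, and Btg2 lie on both sides.

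Fosl2 differed by 1.40 on the log2 scale (SE 0.28, limma adjusted p = 0.00693), with pairs at 1.17, 1.11 and 1.93. It was called higher in chromatin under every alternative and without each library in turn. Atf3 differed by 2.0 (SE 1.03, limma adjusted p = 0.166), and the 3 pairs, at 1.82, 1.72 and 2.45, lay closer together than the libraries of either fraction. With the replicate block its SE was 0.17 and its adjusted p 0.00133, and without replicate 3 of both fractions it differed by 1.77 (limma adjusted p = 0.00171). Leaving out chromatin replicate 3 alone gave 1.01 and leaving out nucleoplasm replicate 3 alone gave 2.76. Fosb differed by 2.46 (SE 1.41, limma adjusted p = 0.212), with pairs at 2.30, 0.95 and 4.12. Its adjusted p was 0.0393 with the replicate block, but 0.0564 by edgeR on recovered reads with the same block and 0.0603 without replicate 3 of both fractions. It was 0.92 without chromatin replicate 3 and 3.54 without chromatin replicate 2.

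Jund differed by -1.03 (SE 0.31, limma adjusted p = 0.0331) and was lower in chromatin in 3 of 3 pairs. This call was lost without any of 5 of the 6 libraries in turn (all but chromatin replicate 3), where adjusted p lay between 0.0611 and 0.108, and it had an adjusted p of 0.00581 with the replicate block. Ier2 differed by -1.19 (SE 0.24, limma adjusted p = 0.00789) and was called without each library in turn. Egr1 differed by -1.02 (SE 0.34, limma adjusted p = 0.0501), with pairs between -1.09 and -0.98, and had an adjusted p of 0.000395 with the replicate block and 0.0203 without chromatin replicate 3.

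Junb differed by -0.68 (SE 0.31, limma adjusted p = 0.125), and by -0.95 (limma adjusted p = 0.0393) without chromatin replicate 3. With the replicate block its adjusted p was 0.00363. Jun differed by -0.25 (SE 0.74, limma adjusted p = 0.794), with pairs at -0.19, -0.19 and -0.39, and an adjusted p of 0.0376 with the replicate block. Fos (-0.13, SE 0.78, limma adjusted p = 0.904) and Btg2 (0.25, SE 0.38, limma adjusted p = 0.606) did not differ beyond the spread between libraries.

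These directions are relative to the size factors that scale the libraries, and not to the amount of RNA in each fraction. ERCC standards, added to each fraction before RNA extraction, were 183950 to 213760 normalized counts in chromatin and 261886 to 392823 in nucleoplasm (log2 difference -0.73, exact permutation p = 0.1, two-sided, the smallest that 20 regroupings allow). Scaling libraries to equal ERCC totals moved the median of all entries by 0.46 and the share of calls that were higher in chromatin from 56.3% to 80.0%. Under it Fosl2 remained called and passed 4 fold (2.14, limma adjusted p = 0.00396). Jund (-0.30, limma adjusted p = 0.571), Egr1 (-0.29) and Ier2 (-0.46, limma adjusted p = 0.383) kept their sign without a call, and Fos (0.60), Jun (0.48) and Junb (0.06) changed sign. Quantile normalization ended the call of Jund as well (-0.80, limma adjusted p = 0.0912).

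The order of the differences went with intron content, which was compared after the differences were known. Jun, Junb, Jund and Ier2 have no intron in the GENCODE transcript used, and their median difference was -0.86 (n = 4), against 0.82 for the 6 genes with introns. Fosl2, Atf3 and Fosb have the longest introns, of 15505, 11061 and 3574 bases in sum, and Fos, Btg2 and Egr1 follow with 1276, 1208 and 714. Across the 10 genes, which share the same 6 libraries, Spearman's rho of the difference with intron length was 0.844, given as a description. Among coding loci averaging 100 or more normalized counts, the median was -1.46 for 235 without introns and -0.38 for 9616 with introns. How many reads fell in introns was not measured here.

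**Figure D3:**
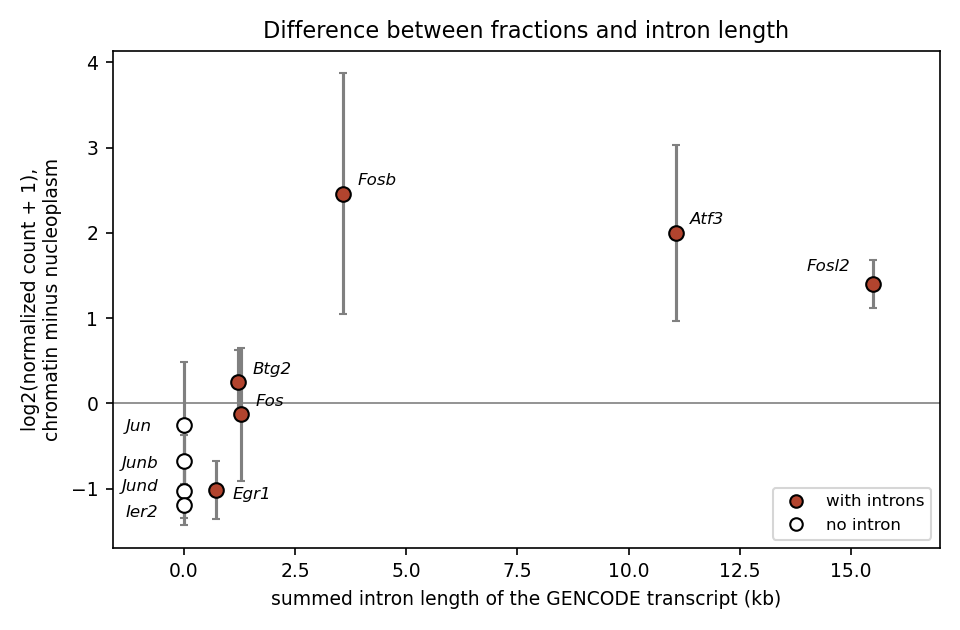
Difference of log2(normalized count + 1), chromatin minus nucleoplasm (limma estimate, bars 1 SE), against the summed intron length in kb of the GENCODE transcript of each gene, with open circles for genes without introns. The 3 genes with over 3 kb of introns lie above 1, and the 4 without introns lie below 0.

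The members lie on GRCm38 as follows. Fos (chr12:85473890-85477273), Fosl2 (chr5:32135801-32157842), Jund (chr8:70698949-70700616) and Egr1 (chr18:34859823-34864984) are on the plus strand. Fosb (chr7:19302696-19310051), Jun (chr4:95049034-95052222), Junb (chr8:84974484-84978718), Ier2 (chr8:84661331-84662852), Atf3 (chr1:191170296-191218039) and Btg2 (chr1:134075170-134079120) are on the minus strand. The entry used for Btg2 was 6991 bp long for a gene of 3951 bp, that of Jund 2878 bp for 1668 bp, and that of Atf3 covered 13038 of 47744 bp.

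Other entries within 5000 bp of a member were listed without regard to their values. Junos, a noncoding RNA on the strand opposite Jun (chr4:95052224-95169036), was at 161, 152 and 361 in chromatin and at 19.2, 10.8 and 44.2 in nucleoplasm. It was higher in chromatin by 3.23 (SE 0.59, limma adjusted p = 0.00504), did not overlap between fractions and, like Jun, was more than 2 fold above the next library in replicate 3 of both. An Iqcn transcript downstream of Jund on the same strand was at 56.9, 51.4 and 167 in chromatin and at 3.03, 2.40 and 18.1 in nucleoplasm (3.64, SE 0.83, limma adjusted p = 0.0122). Another Iqcn transcript, at 10.2 or less in every library, was not called (-0.27, SE 1.17, limma adjusted p = 0.864). Prdx2, which encodes a peroxiredoxin and whose locus overlaps the annotated Junb gene on the opposite strand, was lower in chromatin by a difference of -2.45 (SE 0.19, limma adjusted p = 0.000144). Short-read counting used strand, so reads of Jun and Junos, and of Junb and Prdx2, were kept apart as far as the library kit marks it. Strand does not separate Jund from Iqcn, whose entries lie on the same strand without overlap.

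Long reads of chromatin RNA were measured in 2 libraries as TPM, the abundance of a transcript per length on a scale with the same total in each library. TPM values keep no read depth, and the assembly did not use strand. Transcripts on the gene's strand and inside the gene were listed for 6 members. Egr1 was at 13.6 and 15.5 TPM in replicates 1 and 2, Jun at 9.09 and 3.46, Fosl2 at 1.83 and 3.28, Atf3 at 1.71 and 4.10, Fosb at 2.81 and 0, and Ier2 at 2.28 and 0.242. Egr1 was the highest of these in both libraries, and the order of the other 5 differed between the libraries. Fos, Junb, Jund and Btg2 had none strictly inside the gene, but each had a model on its strand that extended beyond the annotated ends, by 6, 30, 1210 and 340 bases. Counting these, Junb was at 25.9 and 7.90 TPM, Jund at 13.8 and 3.22, Fos at 12.8 and 1.70 and Btg2 at 9.22 and 3.27, each higher in replicate 1. Models on the opposite strand overlapped 5 members, Jund (20.5 and 2.44), Egr1 (4.15 and 2.92), Atf3 (3.50 and 0), Fosl2 (2.65 and 3.17, beside 1.83 and 3.28 on its own strand) and Junb (3.18 and 11.1, at the Prdx2 locus), and may hold reads of either strand, since the assembly used no strand.

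Genes of the surrounding pathway were taken from 6 lists chosen by name, and values are limma differences on the log2 scale. Over all entries, 26.9% were called higher and 20.9% lower in chromatin, or 28.8% and 23.6% with the replicate block. Among entries with a mean of at least 100, replicate 3 was highest in both fractions for 27.7%. It was more than 2 fold above the others in both for 1.8%. The counts of all 6 lists are to be read beside these shares. Of 8 tested adrenergic receptor genes, 3 were higher and 0 lower in chromatin, or 4 and 2 with the replicate block. Adrb3 (3.33, adjusted p = 3.9e-05 by limma) and Adrb1 (3.06, adjusted p = 9.7e-05), beta receptors, were more than 4 fold higher. Adra1a was also called by limma, but it averaged 3.81 normalized counts in chromatin and was at 0 in all nucleoplasm libraries, so no fold is given. At an unadjusted p under 0.05, limma, edgeR and DESeq2 each had 0 receptors lower. Adra1b, the second most abundant receptor of the list, differed by -0.49 (limma adjusted p = 0.342, and 0.0102 with the replicate block). Of 4 receptors with a mean of at least 100, replicate 3 was highest in both fractions for 1. That receptor was also more than 2 fold above the others in both. Of 20 tested kinases and factors upstream of the members, 10 were higher and 6 lower. They include Rps6ka3, the kinase RSK2, which was higher (1.20), and Hras, which was more than 4 fold lower in chromatin (-2.05). Replicate 3 was highest in both fractions for 4 of these 20, and more than 2 fold above the others in both for 0.

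Other primary response genes numbered 25 tested of 28 named, of which 3 were higher, 7 lower and 15 not called, with a median of -0.30. With the replicate block 4 were higher and 12 lower. Sik1, a salt-inducible kinase, was higher in chromatin (0.49, limma adjusted p = 0.0239), and Rhob, a small GTPase, was lower (-0.99, limma adjusted p = 0.00456). Replicate 3 was highest in both fractions for 12 of 23, and more than 2 fold above the others in both for Egr2 and Dusp1, which are named after their values were seen.

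MAP kinase feedback genes, the phosphatases and Sprouty-related inhibitors that signalling induces, were higher in 3 and lower in 4 of 14, or in 5 and 7 with the replicate block. Spred2 (2.87) and Dusp10 (2.20) were more than 4 fold higher in chromatin, and Spred1 differed by 0.41 (limma adjusted p = 0.0121). Replicate 3 was highest in both fractions for 10 of 13 of them, and more than 2 fold above the others in both for Dusp1 and Dusp6. Dusp6 was at 428, 374 and 1045 in chromatin and at 596, 608 and 1391 in nucleoplasm.

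AP-1 and other bZIP partners were higher in 4 and lower in 4 of 15, with replicate 3 highest in both fractions for 5 of 13 and above 2 fold in both for 0. Atf6, a factor of the unfolded protein response, was higher in chromatin (0.90). Atf2 was not called (0.61, limma adjusted p = 0.73), and its nucleoplasm libraries spread from 3592 to 162315. Genes that bind AU-rich elements or remove poly(A) tails were higher in 6 and lower in 5 of 16, and replicate 3 was highest in both fractions for 3 of 16. The scaffold Cnot1 (0.25, limma adjusted p = 0.063) and the deadenylase Cnot6 (-0.42, limma adjusted p = 0.0564) were not called.

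**Figure D4:**
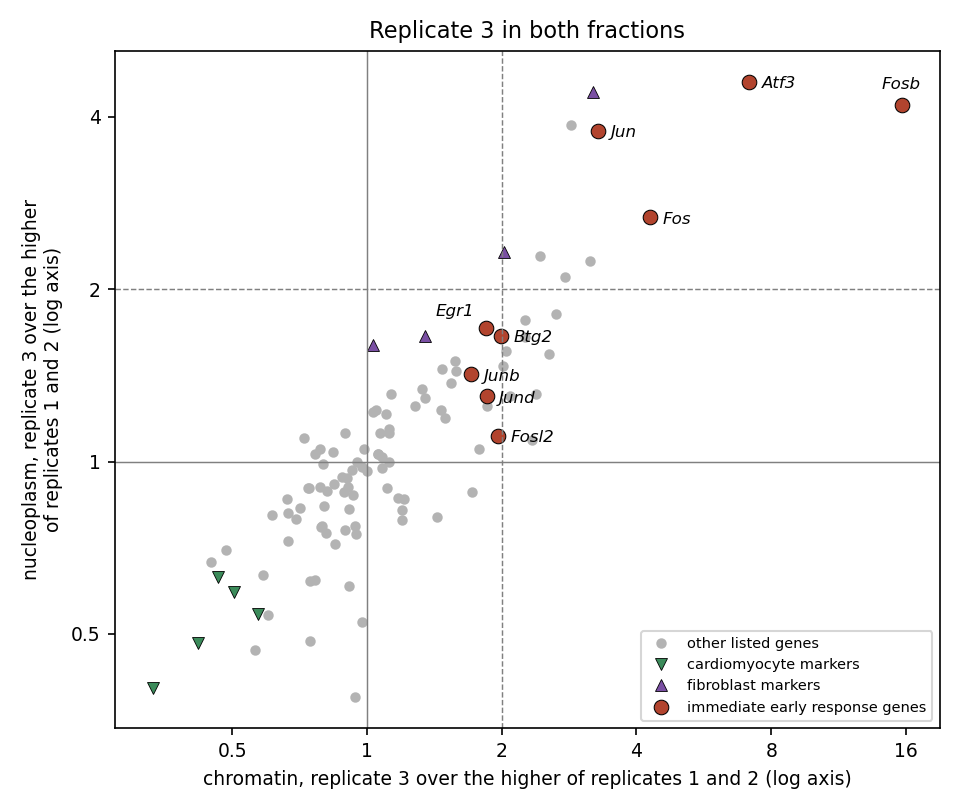
Replicate 3 divided by the higher of replicates 1 and 2, in chromatin (x, log axis) and nucleoplasm (y, log axis), for listed genes with a mean of at least 100 normalized counts, with solid lines at 1 and dashed lines at 2. Fos, Fosb, Jun and Atf3 lie beyond 2 on both axes, and the other 5 members between 1 and 2. The 5 cardiomyocyte markers lie below 1 and the 4 fibroblast markers above 1, of which Col1a2 and Dcn lie beyond 2 on both axes.

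The genes whose pattern was most like that of the summed members were ranked among 9757 coding loci outside the lists by Pearson's r of log2 values over the 6 libraries. Among the 5 most alike were Ryk, Asb12 and Fgd3 (each r = 0.99) and Zfp9 (r = 0.988). Ryk, a receptor tyrosine kinase that binds Wnt proteins, was at 7105, 6927 and 8946 in chromatin and at 7089, 6980 and 7830 in nucleoplasm. Its peak in replicate 3 of both fractions follows from the ranking, because the summed members were highest in replicate 3, and is no separate result.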

How the data were processed

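RNA of 3 chromatin and 3 nucleoplasm short-read libraries and of 2 long-read chromatin libraries of HL1 cells was analysed. The authors aligned short reads to mm10 with ERCC sequences (HISAT2 2.1.0), assembled and merged transcripts (StringTie), counted genes by strand and deposited the signal, gene counts divided by DESeq2 size factors. For long reads (minimap2, strand not used) the authors deposited TPM per transcript.

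Members and lists were chosen with earlier results of these data known. Named were the 10 members, the 2 most abundant genes of each of 7 lists, any gene called at more than 4 fold, and 5 genes of like pattern, of which 2 genes in all are not reported here. Differences were tested with limma 3.58.1 (pseudocount 1, entries above 0 in at least 1 library, Benjamini-Hochberg over all entries). Whole reads (tolerance 0.001, 100% of values) were recovered for edgeR 4.0.16 and DESeq2 1.42.0. The fits were also run on simulated libraries with the same dispersion for every entry and no replicate effect. That simulation does not cover the shift of replicate 3.

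The labels state that the fractions came from 3 independent cultures, and titles give both fractions numbers 1 to 3. Deviations of same-numbered libraries correlated at 0.12, 0.102 and 0.249 over entries with a mean of at least 10 (0.0979, 0.0886 and 0.222 over all). Those of other pairs lay between -0.158 and 0.0636. Among the fits, only those with the replicate block took the numbers as pairs, and the main limma fit did not. To see whether any library was deposited in duplicate, replicates were compared with counting noise alone (chi-square per entry 50.6 to 2480), and none was a duplicate. Precision rests on 3 libraries per fraction.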

Additional observations from a re-analysis of the deposited data

How the results depend on the processing

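Of 180 repeated values for single members, 141 kept direction and side of the threshold, 17 gained a call, 9 lost it and 13 changed sign. All changes of sign concerned members without a call. Fos was 0.03 by edgeR, 0.15 by DESeq2, 0.60 under ERCC scaling and 0.05 under quantile normalization, and ranged from -0.92 to 0.40 when each library was left out. Jun was 0.48 and Junb 0.06 under ERCC scaling, and without single libraries Jun ranged from -0.85 to 0.41 and Btg2 from -0.11 to 0.52. When each library was left out, Atf3 ranged from 1.01 to 2.76 and Fosb from 0.92 to 3.54, with no call. Outside those fits, Fosb was 3.57 by edgeR and 3.70 by DESeq2, where it was called (DESeq2 adjusted p = 0.0235). Fosb and Atf3 were both called by limma with the replicate block. Atf3 was also called by edgeR with the block and by limma without replicate 3 of both fractions. The count of members higher in chromatin (1) was 2 by DESeq2, 3 with the replicate block, 2 by edgeR with the replicate block and 2 without replicate 3 of both fractions. That of members lower (2) was 1 without the mean-variance trend, 0 under ERCC scaling, 1 under quantile normalization, 5 with the replicate block in limma and in edgeR, 4 without replicate 3 of both fractions and 1 to 4 without single libraries. At an unadjusted p under 0.05, limma under ERCC scaling also had 0 members lower. Without ERCC scaling, edgeR and DESeq2 on recovered reads had 2 and 3 members lower by adjusted p and 3 and 4 by unadjusted p. Over all entries, 3110 were lower under ERCC scaling against 7477, and 221 were more than 4 fold lower against 1753. More than 4 fold higher were 5622, against 2995 with a pseudocount of 10 and 3524 under quantile normalization. The causes were not tested. Summing all rows of a gene or using RefSeq rows alone gave the same entry wherever it gave any. These values are counted among the 141 although they could not differ from the main fit. The edgeR fit with the block and the fit without replicate 3 were added after seeing the data. Long-read values rest on 2 libraries, and no paired fit of them was made. Ier2, at 43.7 to 141 normalized counts, has the least depth of the members.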
